A study of Mus musculus with 6 samples.

Results

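The collagen gene family was followed in whole lungs of mice that had received fine airborne particles, called PM2.5, through the trachea, against lungs of mice that had received saline. A gene counted as a collagen where the symbol given to its Ensembl transcripts had the form Col, a number, the letter a and a second number, which held for 44 of 22158 genes and for 175 transcripts. The 3 PM2.5 lungs came from BALB/c mice, an inbred laboratory strain, aged 9 weeks by the labels and given 5 mg of PM2.5 per kg of body weight in 50 µl of saline once a week for 8 weeks. The 3 saline lungs came from BALB/c mice of the same labelled age on the same schedule, given the 50 µl of saline alone. Both groups therefore share the anaesthesia, the instillation and the strain. The libraries of each group are numbered 2, 3 and 4. No label says that the libraries of a group come from separate mice, so each p-value reflects only how far these libraries differ from one another, which may be technical. In whole lung, fewer cells of a type and less RNA per cell cannot be told apart.

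Collagens are secreted or membrane proteins in which 3 chains wind into a triple helix. Fibrillar collagens assemble into the cables that give lung septa and vessel walls their tensile strength, while type IV collagen forms the sheet-like network of basement membranes under epithelium and endothelium. Other collagens link fibrils, form beaded filaments around cells or span the cell membrane. Fibroblasts, smooth muscle cells and pericytes are the main makers of fibrillar collagen in lung, and endothelial and epithelial cells contribute much of the basement membrane. The deposited values are read as FPKM, a fragment count scaled by transcript length and library size, and were summed per gene. Levels of different genes below are therefore per length. Each fold change sets PM2.5 over saline after 0.5 FPKM was added to both and log2 was taken, which understates the change of low genes.

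The libraries summed to 353805 to 373635 FPKM with PM2.5 and to 345089 to 388125 FPKM with saline. Rows named MERGE, which carry no gene or position, held 17.6% to 20.6% of a library, so a collagen value leaves out any fragments counted there. Alveolar type 2 cell markers, a check of the lung label, summed to 3206 to 8851 FPKM in PM2.5 lungs and 3113 to 10289 FPKM in saline lungs. Most of that spread lay in *Sftpc*, which was highest in replicate 2 of both groups. It had 6618, 588 and 1952 FPKM in PM2.5 lungs and 8108, 687 and 861 FPKM in saline lungs. In 2 libraries the values stood apart for collagens. PM2.5 replicate 2 held transcripts of cartilage, and saline replicate 4 held little *Col1a1*, and both are described with the genes they touch. Lung fibroblast markers, 11 genes, summed to 2108 to 2253 FPKM in PM2.5 lungs and 2135 to 2369 FPKM in saline lungs, sums held mostly by *Inmt* and *Gsn*. Gene by gene, log2 fold changes were negative for 9 of the 11 (median -0.30), 7 of 7 smooth muscle markers (median -0.19) and 5 of 6 pericyte markers (median -0.30), where 56.0% of all tested genes were negative. By limma, 1 of the 11, 0 of the 7 and 0 of the 6 were lower at an unadjusted p under 0.05. Of all tested genes, 7.82% were lower at that p. Smooth muscle markers summed to 181 to 400 FPKM in PM2.5 lungs and 248 to 332 FPKM in saline lungs, and pericyte markers to 38.2 to 64.1 FPKM in PM2.5 lungs and 45.3 to 105 FPKM in saline lungs. The part of these cells in the fibrillar values was not tested. For the 6 endothelial markers, 6 of 6 log2 fold changes were negative. By limma 2 of them had an unadjusted p under 0.05, where 7.82% of all tested genes were lower at that p. Their lowest adjusted p was 0.139 with limma. The 6 markers summed to 620 to 692 FPKM in PM2.5 lungs and 777 to 839 FPKM in saline lungs, without overlap. Most of that gap lay in *Cldn5*, with 97.5, 107 and 90.2 FPKM in PM2.5 lungs and 225, 257 and 164 FPKM in saline lungs. Without *Cldn5* the other 5 genes summed to 523, 552 and 602 FPKM in PM2.5 lungs and 575, 582 and 613 FPKM in saline lungs, which overlapped. The part of endothelial RNA in the basement membrane values below was not tested.

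Summed collagen FPKM as deposited were lower in PM2.5 lungs. All 44 genes together held 570, 619 and 517 FPKM in PM2.5 lungs and 661, 701 and 685 FPKM in saline lungs, so the groups did not overlap. The means were 569 ± 51.0 FPKM with PM2.5 and 683 ± 20.1 FPKM with saline (SD, n = 3 each), a ratio of 0.833. As a share of the FPKM of all Ensembl transcripts, collagens made up 0.258%, 0.274% and 0.240% in PM2.5 lungs and 0.265%, 0.312% and 0.313% in saline lungs, and PM2.5 replicate 3 lay above saline replicate 2. On that scale the groups overlapped. The fibrillar class, 11 genes, held 148, 147 and 115 FPKM in PM2.5 lungs and 195, 216 and 130 FPKM in saline lungs. Saline replicate 4, the lowest of its group, held little *Col1a1*, and without that gene the class held 102, 101 and 86.3 FPKM in PM2.5 lungs and 118, 129 and 125 FPKM in saline lungs, with no overlap. The basement membrane class, 6 genes of type IV, held 269, 330 and 268 FPKM in PM2.5 lungs and 299, 321 and 369 FPKM in saline lungs, which overlapped. The other 27 genes held 153, 143 and 134 FPKM in PM2.5 lungs and 167, 165 and 186 FPKM in saline lungs, without overlap. These sums are descriptions of the libraries, with no test.

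**Figure D1:**
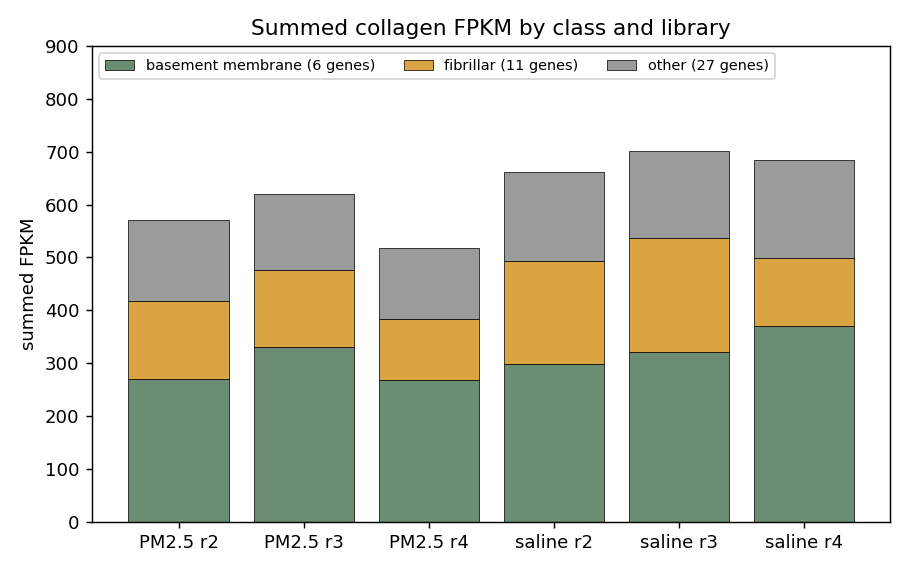
Stacked bars show the summed FPKM of the 3 collagen classes in each library (r2, r3 and r4 are the replicates 2, 3 and 4). The whole bars reach 517 to 619 FPKM in the PM2.5 libraries and 661 to 701 FPKM in the saline libraries, and the fibrillar segment of saline replicate 4 is the smallest of the saline group at 130 FPKM.

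A few genes carried most of this sum. Averaged over the 6 libraries, *Col4a1*, *Col4a2*, *Col3a1* and *Col6a1* held 65.5% of all collagen FPKM, and the 7 highest genes held 83.8%. Of the 44 genes, 30 reached the mean of 0.5 FPKM needed for the test and 14 did not. With limma over 14865 genes and Benjamini-Hochberg adjustment, 0 of the 30 collagens passed the threshold of 0.05 on the adjusted p, where 0.0942% of all tested genes passed. Without adjustment, 7 collagens had p under 0.05, all lower with PM2.5, or 23.3% of those tested, against 7.82% of all tested genes that were lower by that rule. None was higher at that p, where 3.66% of all tested genes were. The number lower was 3 of 30 without PM2.5 replicate 4 (all genes 6.57%), 3 of 30 without saline replicate 3 (all genes 5.57%) and 4 of 30 without saline replicate 2 (all genes 6.03%). It was 4 of 30 as well after median-ratio scaling (all genes 6.47%) and after quantile normalization (all genes 6%). It was 7 of 26 without PM2.5 replicate 2 (all genes 7.7%), 5 of 30 without saline replicate 4 (all genes 7.17%) and 5 of 27 without PM2.5 replicate 2 and saline replicate 4 together (all genes 7.59%).

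Among the 30 tested collagens 15 log2 fold changes were negative and 15 positive, with a median of -0.08, beside -0.03 for all tested genes. Of all tested genes, 56.0% were negative. Of the 9 collagens with a mean of at least 10 FPKM, a level chosen after the values were seen, 7 were negative, namely *Col4a1*, *Col4a2*, *Col3a1*, *Col6a1*, *Col6a3*, *Col6a2* and *Col18a1*. The groups did not overlap for 7 of the 30 collagens, all lower with PM2.5, against 11.8% of all tested genes that were lower without overlap, and 7.04% of all tested genes were higher without overlap.

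**Figure D2:**
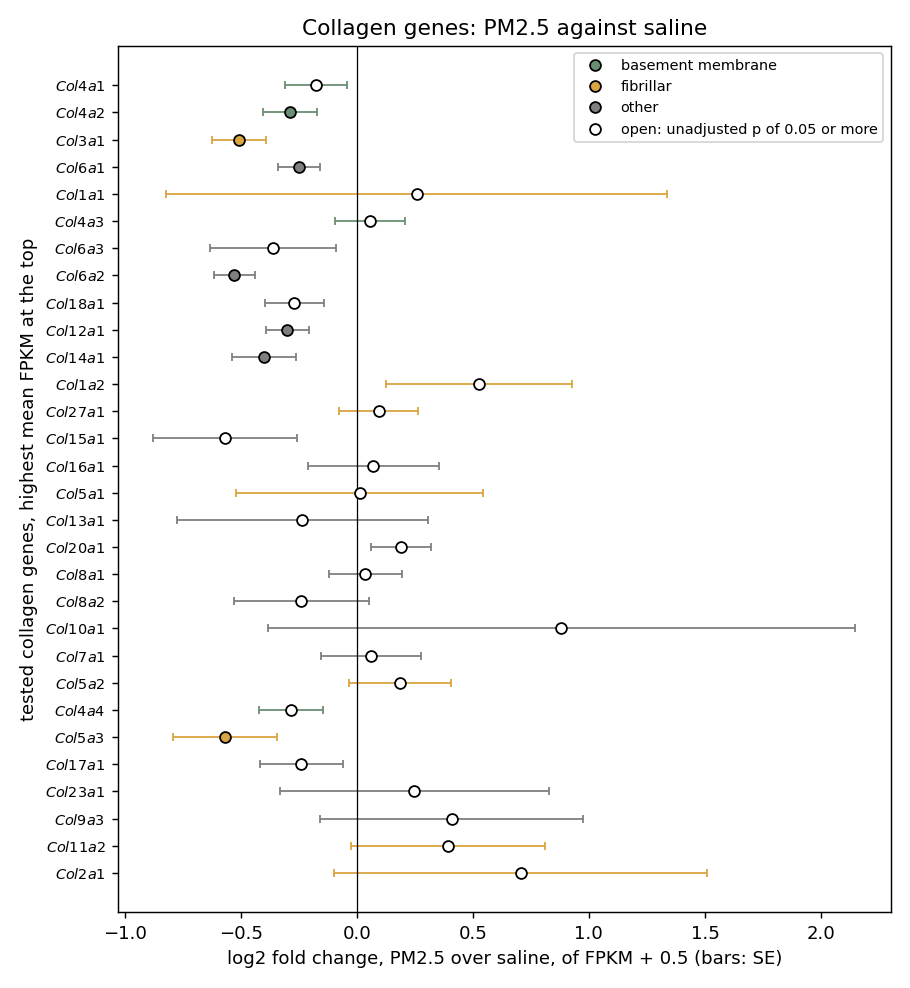
Points give the log2 fold change of FPKM + 0.5, PM2.5 over saline, for the 30 tested collagens, with bars for the SE, ordered by mean level and coloured by class. The 7 filled points have an unadjusted p under 0.05 and all lie left of 0, while *Col1a1* and *Col10a1* have the widest bars, with SE of 1.08 and 1.27.

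**Figure D3:**
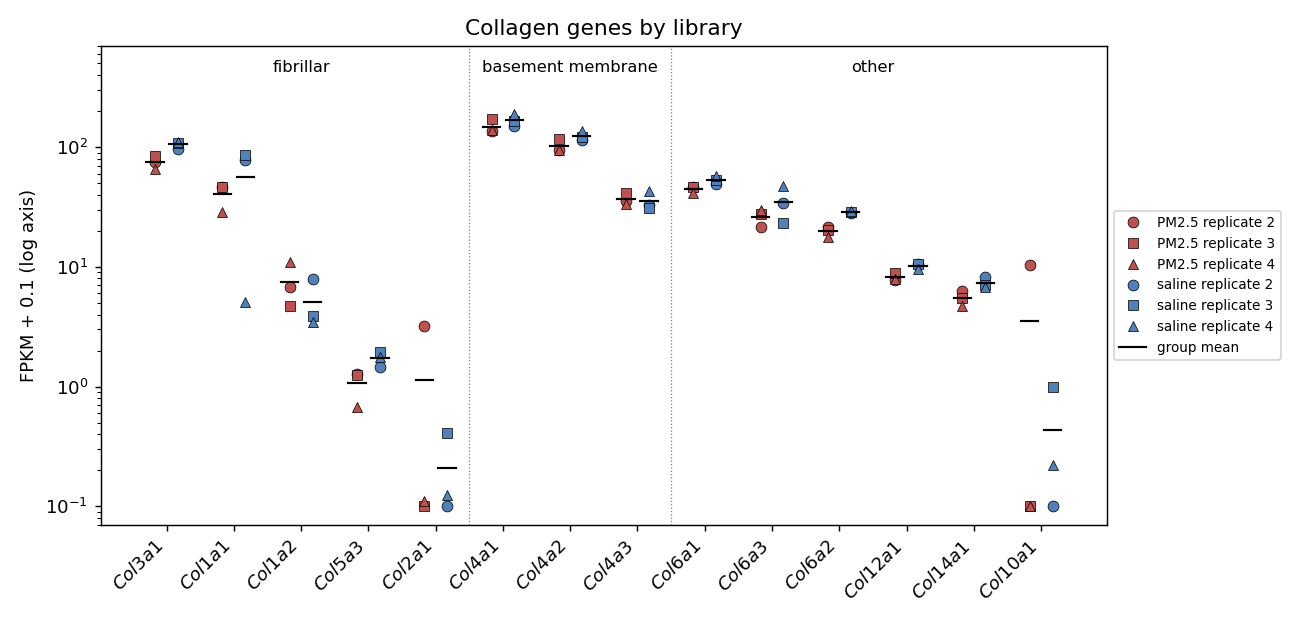
Each point is 1 library and each short line a group mean for the 14 collagens described by library, on a log axis of FPKM + 0.1. *Col3a1* and *Col6a2* show no overlap between groups, saline replicate 4 lies far under the other saline libraries for *Col1a1*, and PM2.5 replicate 2 stands alone for *Col2a1* and *Col10a1*.

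Among fibrillar collagens, *Col3a1*, the single chain of type III collagen of distensible tissues (chromosome 1, 45311538 to 45349706, plus strand, mm10), had 74.8, 83.6 and 65.0 FPKM in PM2.5 lungs and 97.2, 109 and 111 FPKM in saline lungs. Every PM2.5 value lay under every saline value. Its log2 fold change was -0.51 ± 0.12 (SE, unadjusted p = 0.00474, adjusted p = 0.243 with limma), and over 16 other settings it ranged from -0.59 to -0.41 with an adjusted p of 0.221 to 0.523. The transcript ENSMUST00000087883 carried 93.2% to 96.9% of *Col3a1* in PM2.5 lungs and 94.6% to 96.3% in saline lungs.

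*Col1a1*, the chain that makes up most of type I collagen, the main fibril of lung and bone (chromosome 11, 94936224 to 94953042, plus strand), had 45.9, 46.0 and 28.8 FPKM in PM2.5 lungs and 77.4, 86.1 and 4.98 FPKM in saline lungs. Saline replicate 4 lay under all 5 other libraries, and the other 2 saline libraries lay above all PM2.5 libraries. The log2 fold change was 0.26 ± 1.08 with all libraries and -1.04 without saline replicate 4 (unadjusted p = 0.00703, adjusted p = 0.260 with limma). Saline replicate 4 was singled out because its value was low, so the p without it carries no weight as a test. The low value belonged to the main transcript ENSMUST00000001547, at 4.04 FPKM in saline replicate 4 against 76.6 and 84.8 FPKM in saline replicates 2 and 3. The minor form ENSMUST00000148593 had 0.0539 to 0.949 FPKM in PM2.5 lungs and 0.284 to 0.713 FPKM in saline lungs. Saline replicate 4 also held 15 MERGE rows above 30 FPKM that were listed at 0 in all other libraries, against 5 to 14 such rows in each of the others. Whether *Col1a1* fragments were counted in such a row was not tested. Fibroblast markers summed to 2369 FPKM in that library, the highest of the 6, a sum held mostly by *Inmt* and *Gsn*. Against the other saline libraries, single markers lay both higher and lower. *Mfap4* had 407 FPKM there against 315 and 296 FPKM in saline replicates 2 and 3. *Tcf21* had 36.0 FPKM there against 53.2 and 41.7 FPKM. The part of these cells in the low *Col1a1* value was not tested.

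The second type I chain, *Col1a2* (chromosome 6, 4504814 to 4541544, plus strand), was listed at only 6.74, 4.58 and 10.9 FPKM in PM2.5 lungs and 7.84, 3.82 and 3.38 FPKM in saline lungs. The groups overlapped, and the log2 fold change was 0.53 ± 0.40, with an adjusted p of 0.655 by limma. Type I collagen is built from a pair of *Col1a1* chains and 1 *Col1a2* chain, yet the ratio of the FPKM of *Col1a1* to that of *Col1a2* was 6.81, 10.03 and 2.65 in PM2.5 lungs and 9.88, 22.5 and 1.47 in saline lungs. The FPKM of *Col1a2* was spread over several forms. Its longest listed form, ENSMUST00000031668, reached 1.59, 0 and 3.01 FPKM in PM2.5 lungs and 2.33, 0.257 and 0.265 FPKM in saline lungs. Shorter forms held most of the rest. ENSMUST00000148864 had 1.56, 1.36 and 2.78 FPKM in PM2.5 lungs and 1.26, 0.996 and 0.784 FPKM in saline lungs. ENSMUST00000155687 had 2.02, 1.55 and 2.80 FPKM in PM2.5 lungs and 1.77, 1.202 and 1.73 FPKM in saline lungs. ENSMUST00000203346 had 1.05, 0.971 and 1.22 FPKM in PM2.5 lungs and 0.697, 0.836 and 0.474 FPKM in saline lungs. Of these, ENSMUST00000148864 and ENSMUST00000203346 did not overlap between groups, with an adjusted p of 0.532 and 0.531 by limma. The smallest, ENSMUST00000124686, had 0.344, 0.469 and 1.06 FPKM in PM2.5 lungs and 0.650, 0.524 and 0.114 FPKM in saline lungs. The listed level of *Col1a2* is therefore uncertain in all 6 libraries.

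Type V collagen, which sets the diameter of type I fibrils, was low. *Col5a3* (chromosome 9, 20770050 to 20815067, minus strand) had 1.17, 1.15 and 0.571 FPKM in PM2.5 lungs and 1.36, 1.86 and 1.67 FPKM in saline lungs, without overlap, and a log2 fold change of -0.57 ± 0.22 (unadjusted p = 0.0449, adjusted p = 0.422 with limma). Its main form, ENSMUST00000004201, had 1.06, 1.11 and 0.571 FPKM in PM2.5 lungs and 1.31, 1.37 and 1.29 FPKM in saline lungs, and the other, ENSMUST00000145974, stayed at or under 0.494 FPKM in every library. *Col5a1* had 3.98, 4.10 and 3.08 FPKM in PM2.5 lungs and 4.44, 7.54 and 1.32 FPKM in saline lungs, so saline replicate 4 was again the lowest library. *Col5a2*, whose span lies 24614 bases from that of *Col3a1* on the opposite strand, had a log2 fold change of 0.19 ± 0.22, against -0.51 for its neighbour. *Col27a1*, a fibrillar collagen of cartilage and other tissues, had 4.65 to 6.85 FPKM in PM2.5 lungs and 4.51 to 5.76 FPKM in saline lungs. The median log2 fold change of the 9 tested fibrillar genes was 0.19, with 7 positive. Without PM2.5 replicate 2 it was -0.04 over 7 genes, and without saline replicate 4 it was 0.05 over 9 genes. Without both libraries, a pair chosen after the data were seen, it was -0.48 over 7 genes, 5 of them negative.

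The promoter of *Col3a1* is shown because it differs in base composition from those of the basement membrane genes given further on. It holds 37.7% G and C, the lowest of the 38 collagen windows in the RefSeq table of build GRCm38.p6, each window running from 250 bases before to 50 after a start site. Capitals mark the match to TATAAA, at position -117 from the start. The window is chr1:45311288-45311587, plus strand, written 5′ to 3′.
Col3a1: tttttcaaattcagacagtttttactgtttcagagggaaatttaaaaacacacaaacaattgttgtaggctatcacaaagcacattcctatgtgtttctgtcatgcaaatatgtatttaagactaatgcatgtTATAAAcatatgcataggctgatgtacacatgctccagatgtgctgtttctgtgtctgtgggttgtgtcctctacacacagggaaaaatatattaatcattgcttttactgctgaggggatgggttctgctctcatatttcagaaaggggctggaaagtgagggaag

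Type IV collagen, the basement membrane network, had the highest levels of the family. *Col4a1* (chromosome 8, 11198423 to 11312826, minus strand) had 137, 170 and 138 FPKM in PM2.5 lungs and 149, 166 and 188 FPKM in saline lungs, which overlapped, and the log2 fold change was -0.18 ± 0.13, with an adjusted p of 0.655 by limma. *Col4a2* (chromosome 8, 11312805 to 11449287, plus strand) had 94.6, 116 and 94.8 FPKM in PM2.5 lungs and 114, 122 and 136 FPKM in saline lungs. Only PM2.5 replicate 3 reached into the saline range, and the log2 fold change was -0.29 ± 0.12 (unadjusted p = 0.0489, adjusted p = 0.432 with limma). Both genes encode the chains of the common type IV trimer. The ratio of their FPKM, *Col4a1* to *Col4a2*, was 1.45, 1.47 and 1.46 in PM2.5 lungs and 1.30, 1.36 and 1.39 in saline lungs. These ratios varied little between libraries and did not overlap between groups. One form held 95.6% to 97.3% of *Col4a1* and 98.2% to 98.96% of *Col4a2* over the 6 libraries, so gene and transcript values were close.

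*Col4a1* and *Col4a2* lie head to head on opposite strands, with spans that overlap by 22 bases in the deposited coordinates. Their RefSeq promoter windows, shown because they overlap, share 78 bases, which are in capitals. Each window is written 5′ to 3′ on its own strand, so the shared stretch of one is the reverse complement of that of the other. That of *Col4a1* is chr8:11312777-11313076, minus strand, and that of *Col4a2* is chr8:11312555-11312854, plus strand, in GRCm38.p6.
Col4a1: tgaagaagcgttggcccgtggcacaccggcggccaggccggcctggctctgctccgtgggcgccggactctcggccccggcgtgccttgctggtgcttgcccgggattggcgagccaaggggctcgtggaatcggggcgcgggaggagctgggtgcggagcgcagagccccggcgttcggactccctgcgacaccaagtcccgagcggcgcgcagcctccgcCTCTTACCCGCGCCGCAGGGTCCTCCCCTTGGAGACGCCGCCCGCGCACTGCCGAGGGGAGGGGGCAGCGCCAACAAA
Col4a2: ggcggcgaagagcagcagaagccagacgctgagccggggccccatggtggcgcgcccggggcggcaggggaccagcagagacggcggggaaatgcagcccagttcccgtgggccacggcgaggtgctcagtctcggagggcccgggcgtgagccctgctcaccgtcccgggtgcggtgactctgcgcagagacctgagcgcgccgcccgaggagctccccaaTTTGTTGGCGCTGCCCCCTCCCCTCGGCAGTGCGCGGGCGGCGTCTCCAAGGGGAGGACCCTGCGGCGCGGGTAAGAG

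The type IV chains of *Col4a3* and *Col4a4* are specialised for alveolar and glomerular basement membranes. *Col4a3* (chromosome 1, 82586921 to 82722059, plus strand) had 35.3, 41.5 and 33.2 FPKM in PM2.5 lungs and 32.8, 30.9 and 42.5 FPKM in saline lungs. The groups overlapped, and the log2 fold change of 0.06 ± 0.15, with an adjusted p of 0.917 by limma, was -0.03 without PM2.5 replicate 3 and also without saline replicate 3. One form held 96.02% to 97.8% of it over the 6 libraries. *Col4a4*, whose product joins that of *Col4a3* in one trimer and whose span ends 71 bases from it on the opposite strand, had 1.65, 1.45 and 1.25 FPKM in PM2.5 lungs and 1.77, 1.84 and 2.00 FPKM in saline lungs, without overlap. The unadjusted p of *Col4a4* was 0.0845. The ratio of *Col4a3* to *Col4a4* FPKM was 21.4 to 28.6 in PM2.5 lungs and 16.8 to 21.2 in saline lungs. Of the X-linked pair, *Col4a5* was listed at 0.643, 0.349 and 0.0693 FPKM in PM2.5 lungs and 0.0468, 0.0216 and 0.0175 FPKM in saline lungs. *Col4a6* had 0.341, 0.324 and 0.253 FPKM in PM2.5 lungs and 0.397, 0.402 and 0.502 FPKM in saline lungs. Neither reached the mean needed for a test. PM2.5 values lay above all saline values for *Col4a5* and under all of them for *Col4a6*. Most of *Col4a5* in PM2.5 replicates 2 and 3 was ENSMUST00000128669, at 0.527 and 0.343 FPKM and listed at 0 elsewhere. A NONCODE transcript inside *Col4a5*, left out of these sums, went the other way. It had 1.06, 1.26 and 1.02 FPKM in PM2.5 lungs and 1.36, 1.80 and 1.35 FPKM in saline lungs.

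Type VI collagen forms beaded filaments between basement membranes and the interstitium, from the chains of *Col6a1*, *Col6a2* and *Col6a3*. *Col6a2* (chromosome 10, 76595762 to 76623630, minus strand) had the smallest p of the family, with 21.6, 20.1 and 17.8 FPKM in PM2.5 lungs and 28.3, 28.4 and 29.4 FPKM in saline lungs. The groups were well apart, with means of 19.8 ± 1.88 FPKM with PM2.5 and 28.7 ± 0.611 FPKM with saline (SD, n = 3 each). Its log2 fold change was -0.53 ± 0.09 (SE, unadjusted p = 0.00106, adjusted p = 0.156 with limma, 0.145 to 0.408 over 16 other settings). *Col6a1* (chromosome 10, 76708792 to 76726168, minus strand) had 46.7, 46.2 and 41.2 FPKM in PM2.5 lungs and 49.2, 53.2 and 57.3 FPKM in saline lungs, also without overlap, and a log2 fold change of -0.25 ± 0.09 (unadjusted p = 0.0349, adjusted p = 0.390 with limma). The ratio of *Col6a1* to *Col6a2* FPKM was 2.16, 2.30 and 2.31 in PM2.5 lungs and 1.74, 1.87 and 1.95 in saline lungs. *Col6a3* (chromosome 1, 90765923 to 90843971, minus strand) had 21.3, 27.6 and 29.5 FPKM in PM2.5 lungs and 33.9, 23.1 and 47.3 FPKM in saline lungs, which overlapped. Its log2 fold change, -0.36 ± 0.27 with an adjusted p of 0.654 by limma, was 0.03 without PM2.5 replicate 2 and saline replicate 4 together.

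Transcripts were fitted separately, 60525 in all, and 0 of 56 tested collagen transcripts passed the adjusted threshold, where 0.152% of all tested transcripts passed. By unadjusted p under 0.05, 8 were lower with PM2.5, or 14.3%, against 4.89% of all tested transcripts, and 0 were higher, against 4.56%. The groups did not overlap for 10 transcripts that were lower and 4 that were higher, beside 8.31% and 8.77% of all tested transcripts. For *Col6a2*, ENSMUST00000001181 had 2.72, 1.48 and 2.15 FPKM in PM2.5 lungs and 8.68, 6.47 and 6.16 FPKM in saline lungs, with no overlap and a log2 fold change of -1.55 ± 0.23 (unadjusted p = 0.000612, adjusted p = 0.157 with limma). It made up 7.34% to 12.6% of the gene in PM2.5 lungs and 20.9% to 30.7% in saline lungs. The other long form, ENSMUST00000105413, had 13.2, 13.2 and 8.32 FPKM in PM2.5 lungs and 11.5, 13.7 and 14.8 FPKM in saline lungs, so these groups overlapped. The remaining form, ENSMUST00000137365, had 5.59, 5.37 and 7.36 FPKM in PM2.5 lungs and 8.14, 8.22 and 8.45 FPKM in saline lungs. It was lower without overlap, with a log2 fold change of -0.42 ± 0.15 (unadjusted p = 0.0295, adjusted p = 0.501 with limma).

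For *Col6a3*, ENSMUST00000130846 had 5.83, 5.63 and 5.47 FPKM in PM2.5 lungs and 13.2, 10.8 and 17.4 FPKM in saline lungs, without overlap. Its log2 fold change was -1.19 ± 0.19 (unadjusted p = 0.000764, adjusted p = 0.175 with limma). The form with the highest mean over the 6 libraries, ENSMUST00000136916, did not follow it, with 13.4, 20.3 and 22.1 FPKM in PM2.5 lungs and 12.6, 9.38 and 23.9 FPKM in saline lungs. A short form, ENSMUST00000150769, had 0.316, 0.228 and 0.432 FPKM in PM2.5 lungs and 5.02, 0.421 and 3.12 FPKM in saline lungs, and saline replicate 3 lay among the PM2.5 values. A split of fragments among overlapping forms is an estimate, so single forms are less certain than the gene sum.

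Collagen XVIII, a proteoglycan of basement membranes whose C-terminal fragment is endostatin, an inhibitor of vessel growth, had an upstream-start form that was near 0 in 4 libraries and high in PM2.5 replicates 3 and 4. The gene *Col18a1* (chromosome 10, 77052178 to 77166548, minus strand) had 10.7, 9.61 and 7.92 FPKM in PM2.5 lungs and 10.6, 11.5 and 11.99 FPKM in saline lungs, with an unadjusted p of 0.0787, so it was named here after its transcripts were seen. The transcript from the upstream start, ENSMUST00000081654, had 0.0355, 5.11 and 3.66 FPKM in PM2.5 lungs and 0.00230, 0.0157 and 0.00235 FPKM in saline lungs. It supplied 0.334%, 53.2% and 46.2% of the gene in PM2.5 lungs and 0.0196% to 0.136% in saline lungs. A transcript that begins near the downstream start, ENSMUST00000072755, mirrored it, with 9.23, 2.41 and 2.70 FPKM in PM2.5 lungs and 8.16, 9.55 and 10.2 FPKM in saline lungs. PM2.5 replicate 2 resembled the saline libraries, and replicates 3 and 4 did not. Another form, ENSMUST00000105409, begins at the downstream start and had 0.784 to 1.14 FPKM in PM2.5 lungs and 0.933 to 1.19 FPKM in saline lungs.

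With all libraries, ENSMUST00000081654 had a log2 fold change of 2.20 ± 0.90 (unadjusted p = 0.0515, adjusted p = 0.529 with limma). Without PM2.5 replicate 2 it was 3.25 and passed, with an adjusted p of 0.0213 with limma, the lowest of its 11 other settings and the only one to pass. Without saline replicate 4 as well, the adjusted p was 0.0885 with limma. PM2.5 replicate 2 was the PM2.5 library with this form near 0, and the form was chosen after its values were seen. The pass without that library therefore carries no weight as a test. For ENSMUST00000072755 the log2 fold change was -1.12 ± 0.48 with all libraries and -1.68 without PM2.5 replicate 2 (adjusted p = 0.533 and 0.0569 with limma). Markers of some other tissues, adipocyte and cardiac muscle among them, also set PM2.5 replicate 2 apart from replicates 3 and 4, and others did not. Nerve sheath markers, for one, summed to 61.0, 64.8 and 61.1 FPKM in PM2.5 lungs and 56.8, 66.9 and 74.3 FPKM in saline lungs. The 5 adipocyte markers found summed to 36.2, 6.10 and 4.57 FPKM in PM2.5 lungs and 19.3, 33.8 and 22.1 FPKM in saline lungs. The 7 cardiac muscle markers summed to 265, 36.6 and 53.0 FPKM in PM2.5 lungs and 175, 376 and 179 FPKM in saline lungs. The part of these tissues in the *Col18a1* transcripts was not tested.

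**Figure D4:**
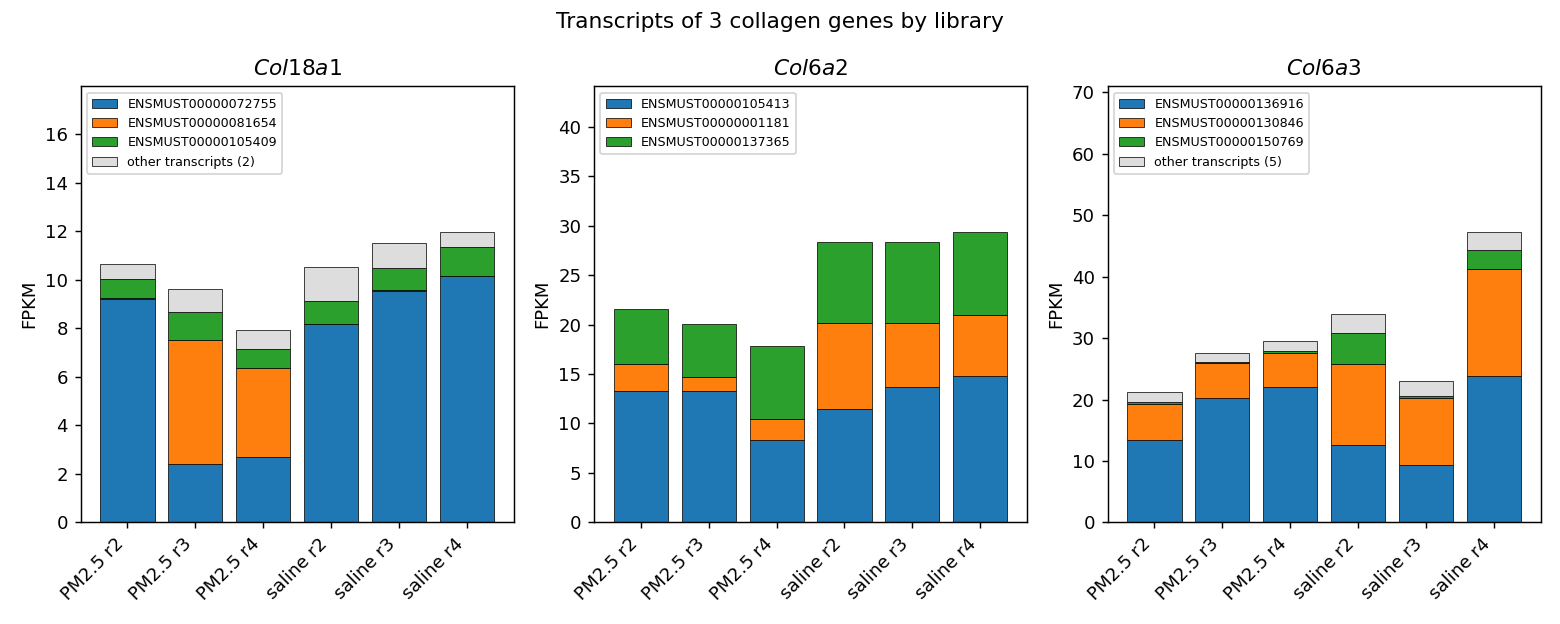
Stacked bars give the FPKM of each transcript of *Col18a1*, *Col6a2* and *Col6a3* in each library, with forms under 10% of the gene in every library pooled. The upstream *Col18a1* form ENSMUST00000081654 is visible only in PM2.5 replicates 3 and 4, at 5.11 and 3.66 FPKM, and ENSMUST00000001181 of *Col6a2* is smaller in the PM2.5 libraries, at 1.48 to 2.72 FPKM, than in the saline libraries, at 6.16 to 8.68 FPKM.

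The windows at both *Col18a1* start sites, 52825 bases apart, are shown because the transcripts that differ begin at or near them. Capitals mark matches to the motifs searched on both strands, which were TATAAA, the core of the TATA box, then CCAAT, the core of the CCAAT box, then GGGCGG, the core of the GC box, and also TGANTCA, the core of AP-1 sites. The upstream window, chr10:77166481-77166780, minus strand, holds 3 matches to GGGCGG and 1 to CCAAT, and the downstream window, chr10:77113656-77113955, minus strand, holds 0 matches to the 4 motifs.
Col18a1 upstream start: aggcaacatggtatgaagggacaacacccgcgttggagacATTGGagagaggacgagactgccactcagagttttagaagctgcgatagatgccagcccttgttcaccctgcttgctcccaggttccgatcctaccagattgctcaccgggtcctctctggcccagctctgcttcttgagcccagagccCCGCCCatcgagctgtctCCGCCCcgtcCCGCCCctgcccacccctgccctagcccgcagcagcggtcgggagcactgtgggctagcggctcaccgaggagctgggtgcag
Col18a1 downstream start: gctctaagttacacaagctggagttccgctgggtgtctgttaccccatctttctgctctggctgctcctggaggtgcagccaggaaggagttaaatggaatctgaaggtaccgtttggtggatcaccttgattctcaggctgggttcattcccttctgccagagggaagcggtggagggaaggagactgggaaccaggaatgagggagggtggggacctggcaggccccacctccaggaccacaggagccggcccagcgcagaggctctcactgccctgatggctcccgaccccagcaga

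Of the fibril-associated collagens, which decorate fibrils, *Col12a1* and *Col14a1* were lower with PM2.5 at an unadjusted p under 0.05. *Col12a1* (chromosome 9, 79598991 to 79718831, minus strand), found on type I fibrils of loaded tissue, had 7.71, 8.81 and 7.87 FPKM in PM2.5 lungs and 10.5, 10.4 and 9.45 FPKM in saline lungs. Its log2 fold change was -0.30 ± 0.09 (adjusted p = 0.336 with limma). *Col14a1* (chromosome 15, 55307750 to 55520803, plus strand), a marker of adventitial fibroblasts, had 6.23, 5.35 and 4.63 FPKM in PM2.5 lungs and 8.16, 7.01 and 6.63 FPKM in saline lungs. Its log2 fold change was -0.40 ± 0.14 (adjusted p = 0.374 with limma). Neither gene's groups overlapped. One form held 84.0% to 92.5% of *Col12a1* and 96.8% to 99.7% of *Col14a1* over the 6 libraries. *Col16a1*, of the same subclass, had 3.15 to 6.12 FPKM in PM2.5 lungs and 3.57 to 5.89 FPKM in saline lungs, and the shares of its 12 listed transcripts varied between libraries. ENSMUST00000097867, named after its values were seen, made up 22.2%, 64.3% and 0.620% of the gene in PM2.5 lungs and 19.1% to 34.1% in saline lungs.

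The second multiplexin, *Col15a1*, which binds basement membranes to interstitial fibrils, had 6.07, 3.28 and 2.57 FPKM in PM2.5 lungs and 4.54, 6.88 and 6.15 FPKM in saline lungs. As with ENSMUST00000072755 of *Col18a1*, PM2.5 replicate 2 lay within the saline range and replicates 3 and 4 lay under it, and the adjusted p was 0.543 with limma. Among transmembrane collagens, *Col13a1* had 1.45 to 6.49 FPKM in PM2.5 lungs and 2.01 to 4.14 FPKM in saline lungs, while *Col23a1* had 0.338 to 1.90 FPKM in PM2.5 lungs and 0.256 to 1.95 FPKM in saline lungs. The values of both membrane-spanning collagens were spread widely within each group. *Col17a1*, the hemidesmosome collagen of basal epithelial cells, had 0.897 to 1.39 FPKM in PM2.5 lungs and 1.14 to 1.504 FPKM in saline lungs. *Col8a1*, a short-chain network collagen of vessel walls, had 2.15 to 2.84 FPKM in PM2.5 lungs and 2.23 to 2.92 FPKM in saline lungs. *Col8a2*, its partner chain, had 1.12 to 2.09 FPKM in PM2.5 lungs and 1.38 to 2.82 FPKM in saline lungs. For both short-chain genes the PM2.5 values fell partly inside the saline range. *Col7a1*, the anchoring fibril collagen of stratified epithelia, had 1.40 to 2.26 FPKM in PM2.5 lungs and 1.24 to 2.04 FPKM in saline lungs. *Col20a1*, a fibril-associated collagen, had 2.51 to 3.17 FPKM in PM2.5 lungs and 2.37 to 2.62 FPKM in saline lungs. All of these ranges overlapped between groups.

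Collagens of cartilage stood out in PM2.5 replicate 2 and in no other library. *Col10a1*, the collagen of hypertrophic cartilage (chromosome 10, 34389981 to 34397085, plus strand), had 10.3 FPKM in PM2.5 replicate 2, was listed at 0 in PM2.5 replicates 3 and 4, and in saline lungs was listed at 0, 0.891 and 0.122 FPKM. *Col2a1*, the main fibrillar collagen of cartilage, had 3.11, 0 and 0.0104 FPKM in PM2.5 lungs and 0, 0.309 and 0.0233 FPKM in saline lungs, mostly from ENSMUST00000023123, at 2.85 FPKM in PM2.5 replicate 2. All 7 cartilage collagens, *Col2a1*, *Col9a1*, *Col9a2*, *Col9a3*, *Col10a1*, *Col11a1* and *Col11a2*, were highest in PM2.5 replicate 2, and they summed to 19.8, 1.23 and 0.452 FPKM in PM2.5 lungs and 0.943, 2.11 and 1.38 FPKM in saline lungs. The PM2.5 and saline groups overlapped, and the adjusted p of *Col10a1* and *Col2a1* was 0.824 and 0.768 with limma.

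Of 9 chondrocyte markers found, 8 were also highest in that library. The cartilage proteoglycan *Acan* had 6.97 FPKM in PM2.5 replicate 2 and at most 0.53 FPKM elsewhere, and the chondrocyte regulator *Sox9* had 0.85 FPKM there and at most 0.31 FPKM elsewhere. The exception was *Matn4*, at 7.63 to 8.58 FPKM in PM2.5 lungs and 8.59 to 11.04 FPKM in saline lungs. Within saline lungs, replicate 3 had the highest values of *Col2a1*, *Col10a1* and *Acan*. The part of cartilage RNA in the other collagen values of that library was not tested.

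**Figure D5:**
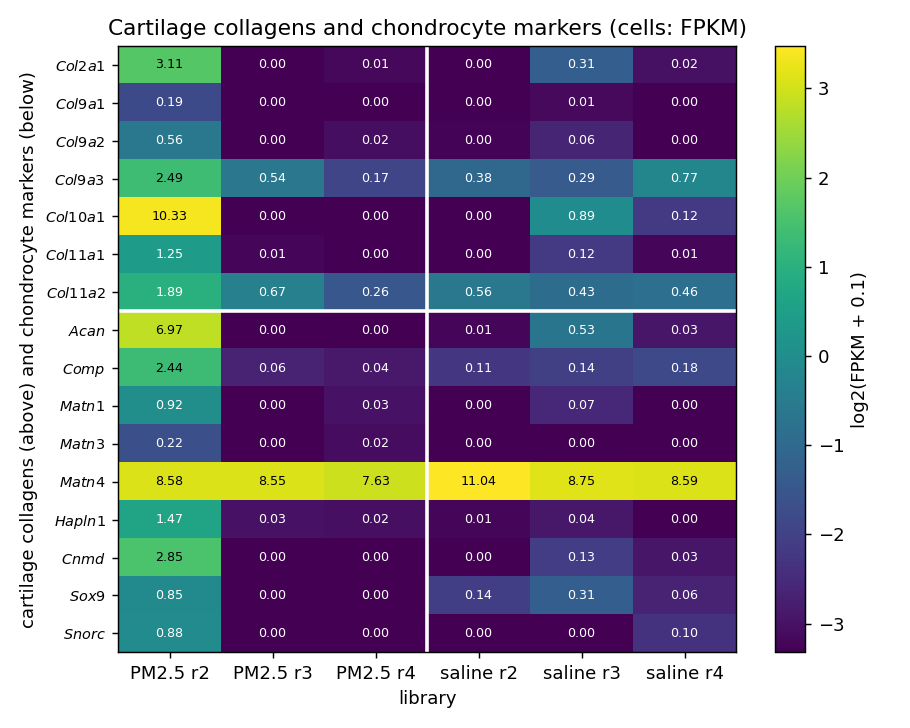
Rows are the 7 cartilage collagens above the white line and 9 chondrocyte markers below it, columns are the libraries, colour is log2(FPKM + 0.1) and the printed values are FPKM. The first column, PM2.5 replicate 2, is the brightest in all rows but *Matn4*, with *Col10a1* at 10.3 FPKM.

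The 14 collagens below the test's minimum had means of at most 0.424 FPKM over the 6 libraries. Their highest single value was that of *Col11a1*, at 1.25 FPKM in PM2.5 replicate 2. In 3 of these low genes the groups did not overlap, which were *Col4a5*, higher with PM2.5, and *Col4a6* and *Col26a1*, lower with PM2.5. Of all 7293 genes below that minimum, 5.02% were lower and 2.89% higher without overlap. *Col26a1* had 0.0565, 0.0263 and 0.0751 FPKM in PM2.5 lungs and 0.203, 0.125 and 0.0874 FPKM in saline lungs. Values of this size correspond to a few fragments and carry large counting error. *Col22a1*, *Col25a1* and *Col28a1* stayed at or under 0.171 FPKM in every library. The type VI chains *Col6a4*, *Col6a5* and *Col6a6* lay between 0.0422 and 0.612 FPKM in PM2.5 lungs and between 0.0792 and 0.770 FPKM in saline lungs. *Col19a1* and *Col24a1* lay between 0.0226 and 0.290 FPKM in PM2.5 lungs and between 0.0746 and 0.238 FPKM in saline lungs.

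Genes that make, export, crosslink and degrade collagen had lower and higher values with PM2.5. The list held 87 genes, of which 83 were tested. By limma 0 passed the adjusted threshold, and by unadjusted p under 0.05 10 were lower with PM2.5 and 7 higher, or 12.05% and 8.43%, against 7.82% and 3.66% of all tested genes. The median log2 fold change of the 83 was -0.10, beside -0.03 for all tested genes. Without saline replicate 4 the numbers were 5 lower and 2 higher, or 6.02% and 2.41%, under the 7.17% and 3.31% of all tested genes in that setting.

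Inside the cell, collagen chains are hydroxylated and folded before export. *P4ha1*, a subunit of the prolyl hydroxylase that stabilises the triple helix, had 10.9, 9.71 and 10.7 FPKM in PM2.5 lungs and 9.28, 5.80 and 5.94 FPKM in saline lungs. *Plod1*, a lysyl hydroxylase, had 22.0, 23.4 and 21.1 FPKM in PM2.5 lungs and 20.2, 16.0 and 17.5 FPKM in saline lungs. *Serpinh1*, the collagen chaperone HSP47, had 35.9, 37.0 and 79.5 FPKM in PM2.5 lungs and 29.5, 25.1 and 25.9 FPKM in saline lungs. All 3 were higher without overlap, with log2 fold changes of 0.57, 0.31 and 0.81 and an adjusted p of 0.355, 0.374 and 0.412 with limma. *Mia3*, which loads bulky procollagen into transport carriers, had 35.8, 34.1 and 34.7 FPKM in PM2.5 lungs and 33.4, 28.2 and 27.2 FPKM in saline lungs. The most abundant gene of the hydroxylation step, *P4hb*, the partner subunit of prolyl hydroxylase, had 108, 116 and 108 FPKM in PM2.5 lungs and 73.6, 107.5 and 19.2 FPKM in saline lungs. Its groups did not overlap, saline replicate 4 was its lowest library, and the adjusted p was 0.565 with limma.

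Several other genes of modification, processing and crosslinking had lower values, while *Lox* and *Colgalt1* had higher means with PM2.5. The galactosyltransferase *Colgalt2* had 5.90, 6.62 and 6.40 FPKM in PM2.5 lungs and 8.001, 8.97 and 7.44 FPKM in saline lungs. The folding factor *Fkbp10* had 5.38, 4.91 and 5.81 FPKM in PM2.5 lungs and 6.23, 7.09 and 7.98 FPKM in saline lungs. *Adamts2*, which removes the N-propeptide of fibrillar procollagens, had 6.51, 7.55 and 6.52 FPKM in PM2.5 lungs and 8.94, 10.6 and 9.32 FPKM in saline lungs. None of these 3 overlapped between groups, and *Adamts2* had a log2 fold change of -0.46 ± 0.11, with an adjusted p of 0.253 by limma. *Pcolce*, which speeds removal of the C-propeptide, had 32.0, 37.2 and 32.6 FPKM in PM2.5 lungs and 39.7, 35.1 and 43.8 FPKM in saline lungs. Its groups overlapped. *Loxl1*, which oxidises lysines for crosslinking, had 10.98, 10.47 and 10.43 FPKM in PM2.5 lungs and 20.6, 25.4 and 18.3 FPKM in saline lungs. At -0.97 ± 0.13 it had the smallest p of the list (unadjusted p = 0.000300, adjusted p = 0.101 with limma). Its relative *Lox*, with 32.3, 25.04 and 19.3 FPKM in PM2.5 lungs and 17.8, 24.3 and 22.4 FPKM in saline lungs, overlapped. *Sparc*, a collagen-binding matrix protein, had 299, 305 and 263 FPKM in PM2.5 lungs and 345, 328 and 388 FPKM in saline lungs. The collagen galactosyltransferase *Colgalt1*, named after its values were seen, had 14.3, 21.0 and 18.8 FPKM in PM2.5 lungs and 1.17, 19.5 and 1.33 FPKM in saline lungs. It passed only without saline replicate 3, with an adjusted p of 0.0178 against 0.459 with all libraries (limma). That was the only saline library with a high value, so this pass carries no weight as a test.

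At the matrix, the peroxidase *Pxdn*, which forms the sulfilimine bonds of type IV collagen, had 30.6, 39.9 and 33.9 FPKM in PM2.5 lungs and 42.15, 45.3 and 51.2 FPKM in saline lungs. The collagen receptor kinase *Ddr1* had 13.6, 12.1 and 12.6 FPKM in PM2.5 lungs and 15.1, 14.9 and 14.2 FPKM in saline lungs. *Mmp2*, a gelatinase, had 35.3, 36.2 and 32.7 FPKM in PM2.5 lungs and 36.7, 44.3 and 42.3 FPKM in saline lungs. All 3 were lower without overlap. The metalloproteinase inhibitor *Timp3* had 252, 264 and 215 FPKM in PM2.5 lungs and 141, 204 and 164 FPKM in saline lungs. The fibril-binding proteoglycan *Fmod* had 6.51, 5.13 and 5.59 FPKM in PM2.5 lungs and 4.15, 4.63 and 4.11 FPKM in saline lungs. Both were higher without overlap. The most abundant proteoglycan, *Bgn*, had 188, 257 and 267 FPKM in PM2.5 lungs and 244, 225 and 310 FPKM in saline lungs. The integrin chain *Itgb1* had 149, 146 and 159 FPKM in PM2.5 lungs and 121, 155 and 158 FPKM in saline lungs, and the laminin chain *Lamc1* had 49.7, 50.5 and 45.9 FPKM in PM2.5 lungs and 49.8, 57.4 and 53.6 FPKM in saline lungs. The groups overlapped for these 3 genes.

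Among genes that induce collagen, *Tgfb1* had 12.05, 11.95 and 12.65 FPKM in PM2.5 lungs and 23.2, 21.2 and 17.1 FPKM in saline lungs (unadjusted p = 0.00113, adjusted p = 0.157 with limma). The feedback inhibitor *Smad7* had 3.79, 3.52 and 4.43 FPKM in PM2.5 lungs and 6.39, 11.5 and 4.71 FPKM in saline lungs. Both were lower without overlap. The receptor *Tgfbr1* had 19.9, 21.3 and 21.2 FPKM in PM2.5 lungs and 17.2, 17.7 and 18.9 FPKM in saline lungs, higher without overlap, and *Tgfbr2* had 66.9, 73.1 and 57.7 FPKM in PM2.5 lungs and 73.7, 73.2 and 78.1 FPKM in saline lungs, lower without overlap. The 17 pathway genes with an unadjusted p under 0.05 had adjusted p of 0.101 to 0.432 with limma.

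Of the motifs searched in the collagen promoters, GGGCGG was the most frequent. The RefSeq table matched 35 of the 44 genes, with 38 windows. GGGCGG, the core of sites that Sp1 family factors bind, lay on one or the other strand in 23 of them, or 60.5%, against 35.7% of all 32851 windows of the table. TATAAA lay in 13.2% of collagen windows and 13.6% of all windows, CCAAT in 34.2% and 37.4%, and TGANTCA in 2.63% and 7.81%. Collagen windows had a median of 59.8% G and C, against 52.7% for all windows, and the part of base composition in the GGGCGG share was not tested. Windows of neighbouring genes are not independent, since those of *Col4a1* and *Col4a2* overlap.

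Collagen genes also lie near each other. *Col6a2* and *Col6a1*, on chromosome 10, are 85161 bases apart on the minus strand, and *Col18a1* follows 326009 bases further on. Their log2 fold changes were -0.53, -0.25 and -0.27. *Col4a6* and *Col4a5*, 1308 bases apart on the X chromosome, are below the mean needed for a test, and their values are given above.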

How the data were processed

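The deposited table held 1 value per transcript and library for 6 whole-lung RNA libraries. Its header names no unit. The values were read as FPKM because they are not whole, the columns have unequal sums and low values lie near regular steps, so the deposited FPKM are an inference. The submitters' processing notes name build mm10 and the tools HISAT2 and bcl2fastq, with no version. Per the labels' protocols, RNA was extracted with Trizol and libraries were made with a NEBNext Ultra kit. Neither the quantifier nor the annotation release is named (not given in the sources used here). From the spacing of low values, for transcripts with a span of 1500 to 3000 bases, a depth of 18800000 to 22050000 fragments per library was estimated. Since just 35.0% to 38.3% of such values came within 0.05 of a multiple of that spacing, no counts were recovered. At that depth, 3 fragments on 1 kb correspond to 0.136 to 0.160 FPKM, for counting error only. A value of 0 can be a failed estimate and is given as listed at 0.

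Ensembl transcripts were summed per symbol. Genes averaging 0.5 FPKM or more, and in a separate fit transcripts, were put on the log2 scale after adding 0.5 and tested by limma 3.58.1 (R 4.3.3, empirical Bayes with a mean trend, 2-sided). Benjamini-Hochberg adjustment ran over all tested features. Classes, the pathway list and cell type markers were chosen, like the members, with earlier results of these data known. Of 94 marker names 89 matched by symbol, 2 by gene ID and 3 were not found. Values per library are given for collagens with an unadjusted p under 0.05, the 3 highest of each class, and those with a library at 0 and another above 1 FPKM. The same holds for transcripts of at least 10% of such a gene, except minor or dominant forms given as ranges or shares, for pathway genes with an unadjusted p under 0.05, and for the highest pathway gene of each step. The *Col18a1* and *Col16a1* transcripts and *Colgalt1* were chosen after their values were seen. Sums and ratios carry no test. Alternatives were pseudocounts of 1 and 0.1, no filter, a mean of at least 2 FPKM, 2 scalings, robust moderation, a replicate block, sums with NONCODE transcripts at least 50% inside the gene on its strand, and each library left out. Leaving out PM2.5 replicate 2 and saline replicate 4 together, and the fibrillar class without *Col1a1*, were chosen after seeing the data. The fits were tested on simulated data with known changes. At the adjusted threshold they recovered 54% of 2-fold and 73% of 4-fold changes for genes, and 8% and 41% for transcripts. A collagen that did not pass can therefore still differ. Promoters come from RefSeq (GRCm38.p6). The library kit is not known to mark strand, so overlapping genes on opposite strands cannot be told apart.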

Additional observations from a re-analysis of the deposited data

How the results depend on the processing

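At the adjusted threshold 0 collagen genes passed in the main comparison and in all 16 other settings. The pathway list gave 1 (*Colgalt1*) without saline replicate 3, and collagen transcripts gave 1 (ENSMUST00000081654 of *Col18a1*) without PM2.5 replicate 2. The number of collagens lower at an unadjusted p under 0.05, 7, was 4 with median-ratio scaling, quantile normalization and the replicate block, and 3 to 7 with 1 library left out. The number higher, 0, was 1 without a filter, or 2.27% against 3.10% of all genes. The pathway list, with 10 lower and 7 higher, gave 6 lower with median-ratio scaling and with quantile normalization, 3 higher with the replicate block, and 5 lower and 1 higher without PM2.5 replicate 2 and saline replicate 4 together. With 1 library left out the list gave 5 to 10 lower, or 6.02% to 11.9%, against 5.57% to 7.70% of all genes. It gave 2 to 5 higher, or 2.41% to 5.95%, against 2.46% to 4.14% of all genes. Collagen transcripts, with 8 lower and 0 higher, gave 1 higher with a pseudocount of 0.1, 2 without a filter and 2 without the library pair. These were 1.79%, 1.14% and 3.77%, against 4.54%, 2.69% and 3.30% of all transcripts. With 1 library left out they gave 5 to 8 lower, or 8.93% to 14.3%, against 3.66% to 5.02% of all transcripts. They gave 0 to 2 higher, or 0 to 3.51%, against 2.89% to 4.38%.

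The fibrillar median of 0.19 was -0.48 without that pair, which was chosen after the data were seen. It was -0.04 without PM2.5 replicate 2 and 0.05 without saline replicate 4. Directions turned for the log2 fold changes that follow. With 1 library left out, *Col1a1* ranged from -1.04 to 0.95 and its transcript ENSMUST00000001547 from -1.06 to 1.06, both negative without saline replicate 4 only. *Col4a3* ranged from -0.03 (-0.035 without PM2.5 replicate 3) to 0.19, and its transcript ENSMUST00000113457 from -0.033 to 0.20. The *Col1a2* transcripts ranged from -0.21 to 1.198 (ENSMUST00000031668) and from -0.0017 to 0.45 (ENSMUST00000124686). Without the library pair *Col1a1* was -1.15, ENSMUST00000001547 -1.16, *Col6a3* 0.026 and ENSMUST00000031668 -0.14. The cause was not tested. Same-numbered libraries deviated from their group means with correlations of -0.03, -0.03 and 0.05. Of the 6 libraries, 2 correlated best with the library of their own number. No label says whether same-numbered samples were paired, and these values cannot settle it. Genes under about 1 FPKM are limited by depth.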
